A study of Mus musculus with 9 samples.

Results

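The 5 high-amplified mammary tumours of the series were compared here in 2 groups, 3 tumours with a high level of Stard3 RNA against 2 with a low level. The groups were chosen by the Stard3 value itself: a tumour was Stard3-high when its normalized count, the number of reads on the gene divided by the size factor of the library, was over 5000. The Stard3-high group held MS1163.1 and MS1163.2, which came from the same virgin mouse, and MS1218.2, from a parous mouse. The Stard3-low group held MS1213.1, from a virgin mouse, and MS1155.3, from a parous mouse. These 5 were drawn from 9 sequenced tumours. Of the others, 3 were not/low-amplified epithelial tumours of parous mice (MS1210.1, MS1349.1 and MS1166.1), which serve as the baseline, and 1 was a sarcoma that was not used. In the baseline, MS1210.1 and MS1349.1 were metaplastic adenosquamous carcinomas and MS1166.1 was an adenocarcinoma of no special type. A difference from the baseline may therefore follow histotype as well as amplification, and the 2 were not separated. Every tumour arose in a BlgCre-NeuKI mouse, heterozygous for both alleles, on a mixed FVB/C57Bl6 background. In these mice a Beta-lactoglobulin promoter drives CRE mainly in luminal oestrogen receptor-negative cells of the mammary gland, and CRE removes a stop cassette in front of an activated rat Neu (NeuNT) gene that sits in the endogenous Erbb2 locus. All 5 high-amplified tumours were adenocarcinomas of no special type, and their label came from a genomic PCR of the Erbb2/Neu locus. For MS1213.1 the study's droplet digital PCR did not match that PCR, while its exome data did. For MS1218.2 neither the droplet digital PCR nor the exome data matched it. The study's RNA-based estimate of tumour purity set MS1218.2 apart as the least pure. Ages were not given in the labels.

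Stard3 lies on chromosome 11 among the genes that are commonly gained together with Erbb2. It encodes a cholesterol-binding protein of late endosomes that passes sterol between endosomes and the endoplasmic reticulum. Its neighbour Pgap3 encodes a Golgi protein that takes part in the exchange of a fatty acid on glycosylphosphatidylinositol (GPI) anchors. These anchors are the lipids that hold many proteins to the cell surface. Erbb2 encodes a receptor tyrosine kinase that drives growth in part of human breast cancers, and Grb7 encodes an adaptor that binds it. When a stretch of DNA is gained in a tumour, each genome may gain a different set of neighbouring genes, and RNA counts give an indirect view of the set.

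Promoters are shown for Stard3, Pgap3 and Erbb2, because the order of the tumour groups differed between them. Stard3 and Pgap3 were high in the Stard3-high tumours, and Erbb2, the next gene of the files, was high in the Stard3-low tumours. Mien1 and Grb7, which follow Erbb2, were again higher in each Stard3-high tumour. The sequences are those of RefSeq on build GRCm38.p6, from 250 bases before to 50 bases after the gene start, written 5′ to 3′ on the strand of the gene. Stard3 is at chr11:98358118-98358417 on the plus strand, Pgap3 at chr11:98400441-98400740 on the minus strand and Erbb2 at chr11:98412234-98412533 on the plus strand. Capitals mark the GC box GGGCGG on either strand, which occurred 5 times for Stard3, 2 times for Pgap3 and 0 times for Erbb2, and which 35.7% of 32851 promoters of this length held. The TATA box TATAAA, held by 13.6% of promoters on either strand, was in none of the 3. A match of letters describes the window and says nothing of a factor.
Stard3: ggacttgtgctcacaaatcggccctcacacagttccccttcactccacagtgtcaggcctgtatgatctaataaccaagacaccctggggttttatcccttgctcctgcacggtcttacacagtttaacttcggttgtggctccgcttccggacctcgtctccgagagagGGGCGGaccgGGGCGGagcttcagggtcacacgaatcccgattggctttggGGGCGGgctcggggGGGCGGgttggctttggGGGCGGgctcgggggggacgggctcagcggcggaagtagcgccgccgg
Pgap3: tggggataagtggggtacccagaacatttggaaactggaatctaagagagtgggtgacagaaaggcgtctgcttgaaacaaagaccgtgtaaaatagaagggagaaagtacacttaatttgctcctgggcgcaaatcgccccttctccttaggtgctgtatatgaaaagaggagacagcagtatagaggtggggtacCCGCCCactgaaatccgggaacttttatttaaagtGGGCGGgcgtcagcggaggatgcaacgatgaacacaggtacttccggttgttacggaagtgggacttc
Erbb2: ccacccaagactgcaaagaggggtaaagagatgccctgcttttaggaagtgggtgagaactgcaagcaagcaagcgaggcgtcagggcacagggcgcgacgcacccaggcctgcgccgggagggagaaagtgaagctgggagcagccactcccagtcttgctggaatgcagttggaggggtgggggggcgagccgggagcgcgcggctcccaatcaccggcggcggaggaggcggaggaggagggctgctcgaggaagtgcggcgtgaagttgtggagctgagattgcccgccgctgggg

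Stard3 (ENSMUSG00000018167, chr11:98358368-98381112, plus strand, build GRCm38) had 24420 normalized counts in MS1163.1, 26990 in MS1163.2 and 18530 in MS1218.2, against 576.9 in MS1213.1 and 593.8 in MS1155.3. Normalized counts were rounded to at most 4 significant figures throughout. The Stard3-low tumours lay below each of the not/low-amplified tumours, which had 773, 773 and 1038, so that no tumour fell near the limit of 5000. The means differed 39.8-fold (23310 ± 4336, SD, n = 3, against 585 ± 11.99, n = 2). By rank among 18484 genes Stard3 stood 31st, 18th and 78th in the Stard3-high tumours, against 5744th and 5781st in the Stard3-low tumours. Pgap3, which starts 7565 bases beyond the end of Stard3, followed the same order: 8768, 11580 and 15890 normalized counts in MS1163.1, MS1163.2 and MS1218.2, against 247.5 and 243.5 in MS1213.1 and MS1155.3. Its means differed 49.2-fold. Because Stard3 made the groups, it and the genes within 500 kb of it are described with no test.

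Around this pair the 5 tumours carried different sets of raised genes. Of the 34 genes of the files within 500 kb of Stard3, 28 passed the filter of the test below and 23 reached 100 normalized counts in some high-amplified tumour. Among these 23 a gene was counted as raised when it had at least 100 normalized counts and over 4 times the highest not/low-amplified tumour. MS1163.1 had 6 such genes, MS1163.2 had 7, MS1218.2 had 10, MS1213.1 had 4 and MS1155.3 had 5. Stac2, an adaptor protein gene, and Grb7 were among them in all 5 tumours. Stac2 had 4064, 2200 and 5023 normalized counts in the Stard3-high tumours MS1163.1, MS1163.2 and MS1218.2, and 1103 and 2275 in MS1213.1 and MS1155.3, against at most 226 in the not/low-amplified tumours. Grb7 had 12340, 11600 and 9759 against 6476 and 6797, and at most 842 in the not/low-amplified tumours. Grb7 was thus higher in each Stard3-high tumour, by 1.69-fold between the means, while Stac2 overlapped between the groups.

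**Figure D1:**
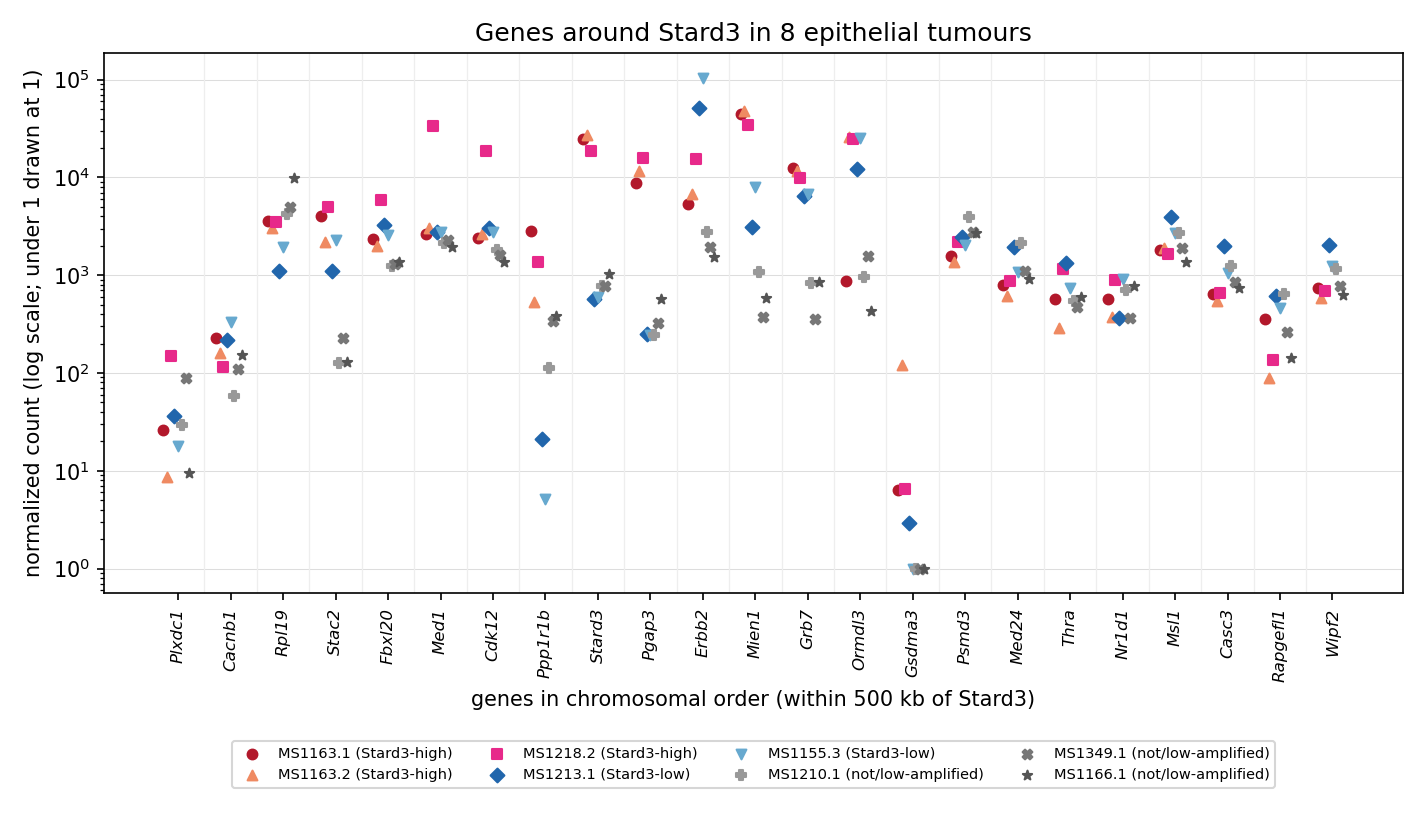
Normalized counts (log axis) of the 23 genes within 500 kb of Stard3 that reached 100 in some high-amplified tumour, in chromosomal order, with 1 point per tumour and a colour and shape for each of the 8 epithelial tumours. Stard3, Pgap3 and Mien1 separate the Stard3-high tumours upward, Erbb2 separates them downward, and MS1218.2 alone is high at Med1 (33510) and Cdk12 (18650).

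The order of the groups turned between Pgap3 and Erbb2, which are neighbours in the files, and turned back at Mien1. Erbb2 had 5284 normalized counts in MS1163.1, 6689 in MS1163.2 and 15260 in MS1218.2, against 51760 in MS1213.1 and 105000 in MS1155.3. The Stard3-low tumours were higher by 8.64-fold between the means, and Erbb2 ranked 6th and 3rd of all genes in MS1213.1 and MS1155.3, against 441st, 308th and 98th in the Stard3-high tumours. All 5 lay above the not/low-amplified tumours (1532 to 2783). MS1163.1 and MS1163.2 were only 1.90 and 2.40 times the highest of these, so Erbb2 was not counted as raised there by the rule above. It was counted as raised in MS1218.2, MS1213.1 and MS1155.3 (5.48, 18.6 and 37.7 times). The Erbb2 counts are reads that aligned to the mouse gene, and the share of rat NeuNT reads among them is not known. Mien1, which promotes cell migration and overlaps the end of Erbb2 by a few bases, went with Stard3 again: 44360, 47600 and 34520 normalized counts in the Stard3-high tumours MS1163.1, MS1163.2 and MS1218.2 against 3136 and 7945 in MS1213.1 and MS1155.3, and 373 to 1073 in the not/low-amplified tumours. Per kilobase of exon Mien1 had 46210 to 63720 normalized counts in the Stard3-high tumours, the highest of the 34 genes in each, whereas Erbb2 was the highest in MS1155.3 (20160). In MS1213.1 Erbb2 (9936) was likewise above the other 33 genes on this scale. Erbb2 was thus at a lower level than Stard3 per kilobase in each Stard3-high tumour (1014, 1284 and 2929 against 6865, 7587 and 5209).

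The raised set reached different distances in the 3 Stard3-high tumours. On the near side, Med1, a subunit of the Mediator complex, had 33510 normalized counts in MS1218.2 and 2607 to 3073 in the other high-amplified tumours. Cdk12, a kinase of the transcription machinery, had 18650 in MS1218.2 and 2427 to 3011 in the others. Fbxl20, an F-box protein gene, had 5870 in MS1218.2 and 1981 to 3223 in the others. MS1218.2 was thus alone at these 3 genes, which stand in a row. On the far side, Ormdl3, a regulator of sphingolipid synthesis, had 26150 in MS1163.2 and 24580 in MS1218.2 but 866 in MS1163.1, which was within the range of the not/low-amplified tumours (431 to 1564). Both Stard3-low tumours were high at Ormdl3 (12250 in MS1213.1 and 25420 in MS1155.3).

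The 2 tumours of mouse MS1163 were therefore not alike at the far end of the stretch. Ormdl3 was 30.2-fold higher in MS1163.2 than in MS1163.1, and Gsdma3, a gasdermin gene, 19.3-fold (122 against 6.30 normalized counts). At Stard3, Pgap3, Mien1 and Grb7 the ratio of MS1163.2 to MS1163.1 lay between 0.94 and 1.32. Ppp1r1b, an inhibitor of protein phosphatase 1 that ends 572 bases before Stard3 on the same strand, had 2831 normalized counts in MS1163.1, 536 in MS1163.2 and 1369 in MS1218.2, against 21.2 in MS1213.1 and 5.15 in MS1155.3. It was higher in each Stard3-high tumour, but MS1163.2 was only 1.42 times the highest not/low-amplified tumour. Tcap, a protein of the muscle sarcomere whose gene lies between Stard3 and Pgap3, had 22.04, 90.72 and 16.66 normalized counts in MS1163.1, MS1163.2 and MS1218.2, against 0 in MS1213.1 and 1.29 in MS1155.3. Its highest value was in MS1163.2, the tumour in which the skeletal muscle markers summed to 27530 normalized counts, against 195 to 782 in the other 4.

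Beyond the stretch the tested genes of chromosome 11 differed in the other direction. Of 340 tested genes farther than 500 kb past Stard3, toward the end of the chromosome, 257 had a negative log2 difference (Stard3-high minus Stard3-low), with a median of -0.67. The 811 tested genes on the near side had a median of 0.09, and all 13949 tested genes one of 0.06. The 2 groups did not overlap, with the Stard3-high tumours lower, for 143 of the 340 genes, or 42.1%, against 9.62% of the 811; across all tested genes the groups did not overlap for 11.6% in this direction and for 11.9% in the other. Relative to the median of the not/low-amplified tumours, the median log2 ratio of these 340 genes was 0.50 in MS1213.1 and 0.08 in MS1155.3, against -0.35 in MS1163.1, -0.54 in MS1163.2 and -0.05 in MS1218.2. MS1213.1 was thus the tumour farthest above the baseline, and the 2 tumours of mouse MS1163 lay farthest below it. Some genes near the far end of the 500 kb already had this order. Med24, another Mediator subunit, had 789, 613 and 879 normalized counts in MS1163.1, MS1163.2 and MS1218.2 against 1925 in MS1213.1 and 1070 in MS1155.3, and Wipf2, an actin regulator, had 739, 590 and 695 against 2051 and 1251. Msl1 and Casc3, whose annotated bodies overlap, were lower in each Stard3-high tumour as well (1814, 1903 and 1658 against 3971 and 2670 for Msl1). The nuclear receptor genes Thra and Nr1d1, which stand between Med24 and Msl1 and whose annotated bodies overlap, did not: Nr1d1 had 564.5, 373 and 902 against 364 and 912, and the groups overlapped for both.

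**Figure D2:**
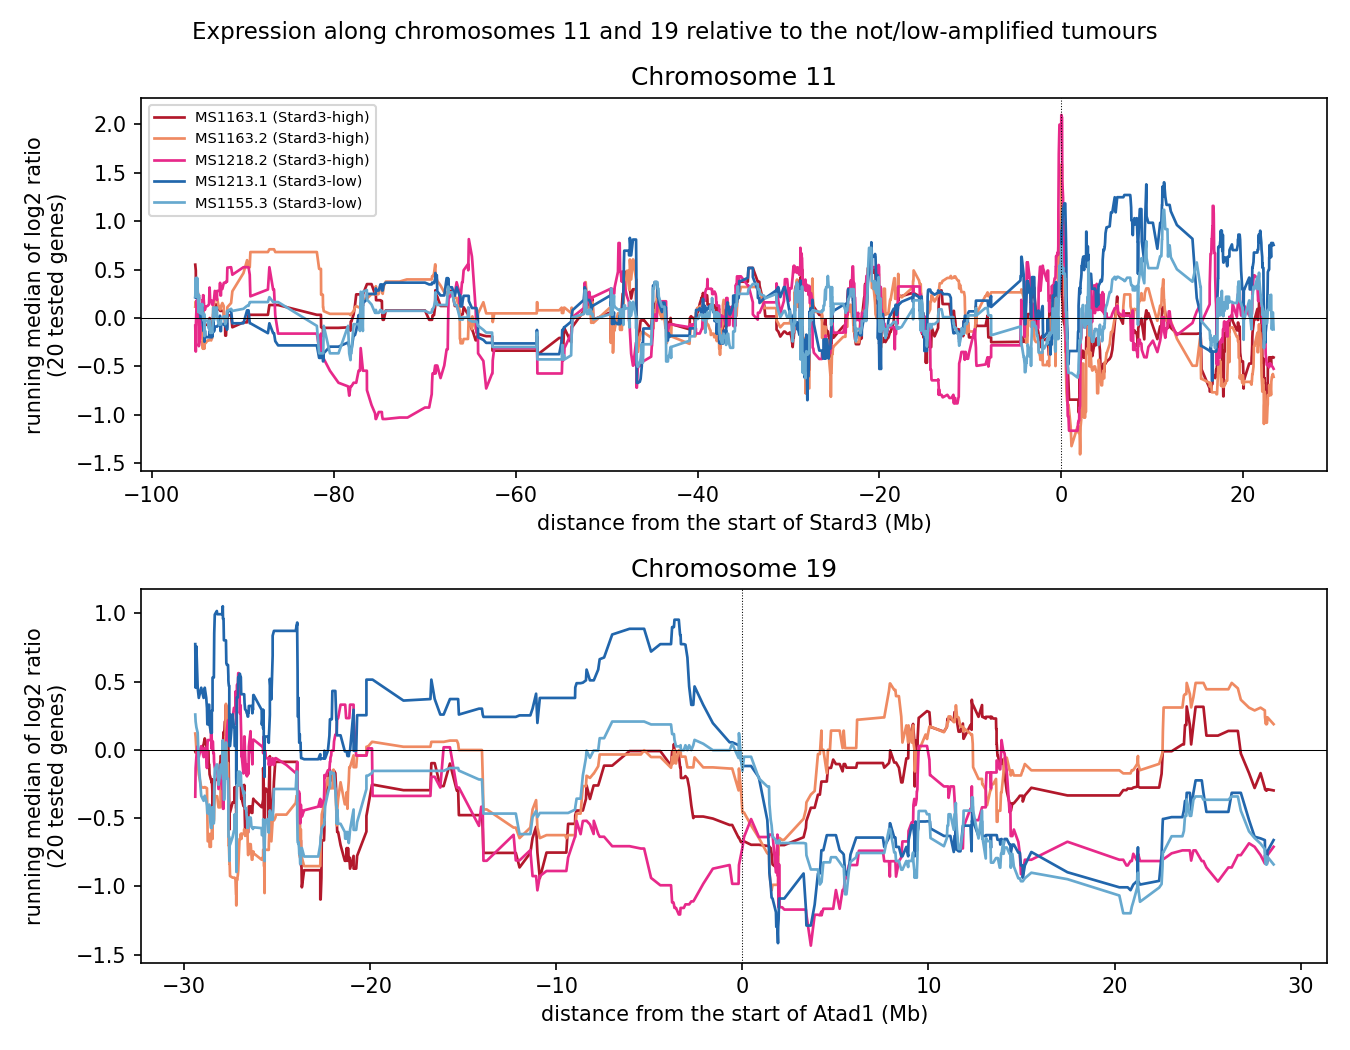
Running medians over 20 neighbouring tested genes of the log2 ratio of each high-amplified tumour to the median of the 3 not/low-amplified tumours (10 added to each normalized count), against the distance in Mb from the start of Stard3 on chromosome 11 (upper panel) and of Atad1 on chromosome 19 (lower panel), with 1 line per tumour. Past Stard3 the line of MS1213.1 is mostly above 0 (median 0.50 over the 340 genes), and past Atad1 the lines of both Stard3-low tumours and of MS1218.2 are mostly below 0 (medians -0.67, -0.73 and -0.63 over 189 genes).

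Genes of this far part of chromosome 11 gave 11 calls of 340 under DESeq2 (adjusted p under 0.05 and over 2-fold), all lower in the Stard3-high tumours, where 0.4% of all genes with an adjusted p were called lower. Prkca, the alpha isoform of protein kinase C (chr11:107933387-108343928), had 2699, 2684 and 2098 normalized counts in MS1163.1, MS1163.2 and MS1218.2 against 11110 in MS1213.1 and 8565 in MS1155.3, a log2 difference of -1.98 ± 0.38 (SE). Stat5a and Stat5b, neighbouring genes for transcription factors of the prolactin response, were picked out after their values were seen. Stat5a had 1100, 1024 and 1921 against 6380 and 4304, and Stat5b 1885, 1320 and 1809 against 5749 and 4113. Both were called with 5 tumours but not with the 2 tumours of mouse MS1163 summed (DESeq2 adjusted p 0.162 for Stat5a and 0.312 for Stat5b). Each of the 3 genes was at least 2.18-fold lower in the highest Stard3-high tumour than in the lowest Stard3-low tumour. The fatty acid synthesis genes Acly (log2 difference -1.27 ± 0.39) and Fasn (-1.15 ± 0.50), which also lie in this part of the chromosome, were lower in each Stard3-high tumour but were called by neither tool.

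On chromosome 19 both Stard3-low tumours had high counts of Atad1. Atad1 (chr19:32671638-32739786), an ATPase that removes misplaced proteins from mitochondria, had 1331 normalized counts in MS1163.1, 1717 in MS1163.2 and 540 in MS1218.2 against 31940 in MS1213.1 and 39270 in MS1155.3. The not/low-amplified tumours had 2155 to 3521, so that each Stard3-high tumour lay below the baseline, and the Stard3-low tumours were 9.07 and 11.2 times the highest of them. The log2 difference was -4.90 ± 0.62, with an adjusted p of 0.229 in edgeR and 2.52e-13 in DESeq2. Atad1 ranked 17th and 15th of all genes in MS1213.1 and MS1155.3, against 3072nd, 2339th and 6171st in the Stard3-high tumours.

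The neighbours of Atad1 were raised in MS1155.3 and not in MS1213.1. Sgms1, a sphingomyelin synthase, had 35950 normalized counts in MS1155.3 and 692 to 2202 in the other 4 high-amplified tumours. Asah2, a neutral ceramidase, had 23970 in MS1155.3 and 248 to 1037 in the others. Minpp1, a phosphatase of inositol phosphates that was picked out after its values were seen, had 17050 in MS1155.3 and 518 to 1112 in the others. In MS1213.1 Asah2, Sgms1 and Minpp1 were 2.34, 0.87 and 0.60 times the highest not/low-amplified tumour, under the 4 times set above. Papss2, a sulfate-activating enzyme gene that stands between Minpp1 and Atad1 and was also picked out after its values were seen, had 87.6 in MS1155.3 and 84.8 in MS1213.1. The high counts of MS1155.3 thus did not take in every gene of the stretch. More than 1000 kb past Atad1, toward the end of chromosome 19, the 189 tested genes had a median log2 difference of 0.67, with 58 of them (30.7%) higher in each Stard3-high tumour, against 11.9% of all tested genes. The median log2 ratio of these 189 genes to the not/low-amplified tumours was -0.09 in MS1163.1 and -0.01 in MS1163.2, against -0.63 in MS1218.2, -0.67 in MS1213.1 and -0.73 in MS1155.3, so that MS1218.2 was close to the Stard3-low tumours and the 2 tumours of mouse MS1163 stood apart.

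Across all genes no call was made at the planned threshold. The edgeR quasi-likelihood test on the raw counts covered 13949 genes, and 0% were called in either direction (0 genes at adjusted p under 0.05 and over 2-fold). Its smallest adjusted p was 0.158. At an unadjusted p under 0.05 it had 391 genes higher (2.8%) and 353 lower (2.53%) in the Stard3-high tumours. DESeq2 gave an adjusted p to 14750 genes and called 46 higher (0.312%) and 59 lower (0.4%), of which 5 and 1 lay within 500 kb of Stard3, and limma-voom called 2 and 0, both of the 2 being genes by which or beside which the groups were chosen. With 3 tumours against 2 there are 10 ways to divide them, so an exact permutation test of a single gene cannot give a p below 0.1. The tests treat the 2 tumours of mouse MS1163 as separate replicates, and they compare groups that a measured value set, in which parity is mixed. Below, a gene is described as higher or lower in each tumour of a group where the groups did not overlap, and "called" refers to DESeq2.

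Among the genes lower in the Stard3-high tumours with the smallest p were epithelial adhesion and keratin genes. Fat2, an atypical cadherin gene, had 42.0, 34.8 and 52.8 normalized counts in MS1163.1, MS1163.2 and MS1218.2 against 608 in MS1213.1 and 1219 in MS1155.3, and 753 to 3392 in the not/low-amplified tumours. It lies far from Stard3 on the near side (chr11:55250609-55336564), and its log2 difference was -4.38 ± 0.49 (adjusted p 0.158 in edgeR, 5.27e-13 in DESeq2). Pkp1, a desmosomal plakophilin, had 316, 209 and 242 against 1452 and 1072, and Krt5, the keratin of basal cells, had 12.6, 43.5 and 30.6 against 154 and 1392. Both were called. Trp63, the basal transcription factor p63, had 49.3, 79.5 and 32.4 against 220.5 and 743, and Krt14, the partner of Krt5, which lies past Stard3 on chromosome 11, had 7.35, 38.5 and 242 against 1703 and 1449. Of the 10 basal and myoepithelial markers these 3, Krt5, Krt14 and Trp63, were called lower, against 0.4% of all genes, and the median log2 difference of the list was -0.45. The list as a whole did not share the direction, since 5 of the 10 had a positive difference and 5 a negative one. Oxtr was among the negative ones (-3.12 ± 1.12) and was lower in each Stard3-high tumour, but was not called. The contractile genes Acta2 and Actg2 reached 11090 and 1878 in MS1218.2, against 807 to 903 and 32.2 to 89.2 in the other 4 tumours. Its summed level was 1980, 3498 and 18560 in the Stard3-high tumours MS1163.1, MS1163.2 and MS1218.2, and 6285 and 7502 in MS1213.1 and MS1155.3.

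The other lower genes of this rule encode receptors, an integrin, a channel and a ligand among others. Fgfr3, a fibroblast growth factor receptor, had 26.2, 46.0 and 19.4 normalized counts in MS1163.1, MS1163.2 and MS1218.2 against 214 and 237 in MS1213.1 and MS1155.3. Angpt1, the ligand of the endothelial receptor Tie2, had 105, 185 and 100 against 552 and 688. Itgb8, an integrin subunit that activates TGF-beta, had 1569, 1031 and 1243 against 4711 and 4077. These 3 genes were called, though Itgb8 was not with the 2 tumours of mouse MS1163 summed (DESeq2 adjusted p 0.119). Ntng1, a netrin-G gene (8.39, 9.94 and 4.63 against 555 and 86.3), and Trpm6, a magnesium channel on chromosome 19 (297, 296 and 356 against 3881 and 1137), had a wider spread, with MS1213.1 the highest. Fer1l4 had 12.6, 17.4 and 13.9 against 505 and 234. Ntng1, Trpm6 and Fer1l4 were called as well, with log2 differences of -5.38 ± 0.90, -2.98 ± 0.54 and -4.65 ± 0.57.

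The genes higher in the Stard3-high tumours included matrix, glycosylation and signalling genes. Comp, cartilage oligomeric matrix protein, had 8631 normalized counts in MS1163.1, 886 in MS1163.2 and 634 in MS1218.2 against 8.67 in MS1213.1 and 10.3 in MS1155.3, and 6.33 to 14.6 in the not/low-amplified tumours. Its log2 difference was 8.47 ± 1.61, and MS1163.1 was 9.74-fold above the other tumour of its mouse. Plod2, the enzyme that hydroxylates lysines of collagen, had 1471, 2908 and 1585 against 481 and 497. Socs2, a feedback inhibitor of cytokine receptors, had 5677, 4548 and 3471 against 1243 and 1225, and all 5 exceeded the not/low-amplified tumours (243 to 805). St6gal1, which adds sialic acid to glycoproteins, had 2173, 2338 and 1938 against 807 and 524, though the not/low-amplified tumours spread from 199.8 to 7006. All 4 were called, but with the 2 tumours of mouse MS1163 summed only Comp was (DESeq2 adjusted p 0.0969 for Plod2, 0.154 for Socs2 and 0.285 for St6gal1). In MS1218.2, whose fibroblast markers summed to 386500 normalized counts against 45200 to 117300 in the other 4 high-amplified tumours, Comp and Plod2 were not the highest of the group; the part of stroma in these differences was not tested.

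The other genes of this kind had low to middling levels. H2afy2, a macroH2A histone variant, had 192, 196 and 67.6 normalized counts in MS1163.1, MS1163.2 and MS1218.2 against 9.63 in MS1213.1 and 5.15 in MS1155.3. Ndrg4 (473, 785 and 198 against 38.5 and 45.1), Aif1l, an actin-binding protein gene (418, 516 and 160 against 32.7 and 45.1), and Lmcd1, a LIM domain gene (140, 293 and 307 against 30.8 and 37.4), had the same order, as did Fam171a1 and the fetuin gene Fetub. All were called, with log2 differences from 2.09 (Fam171a1) to 4.31 (H2afy2), and Fam171a1 lost its call with the tumours of mouse MS1163 summed (DESeq2 adjusted p 0.0634). Rpl29, a ribosomal protein gene, had 1498, 1511 and 2677 against 144.5 and 203.5. The genome holds many near-identical copies of such genes, only reads with a single position were kept, and this value is therefore uncertain.

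**Figure D3:**
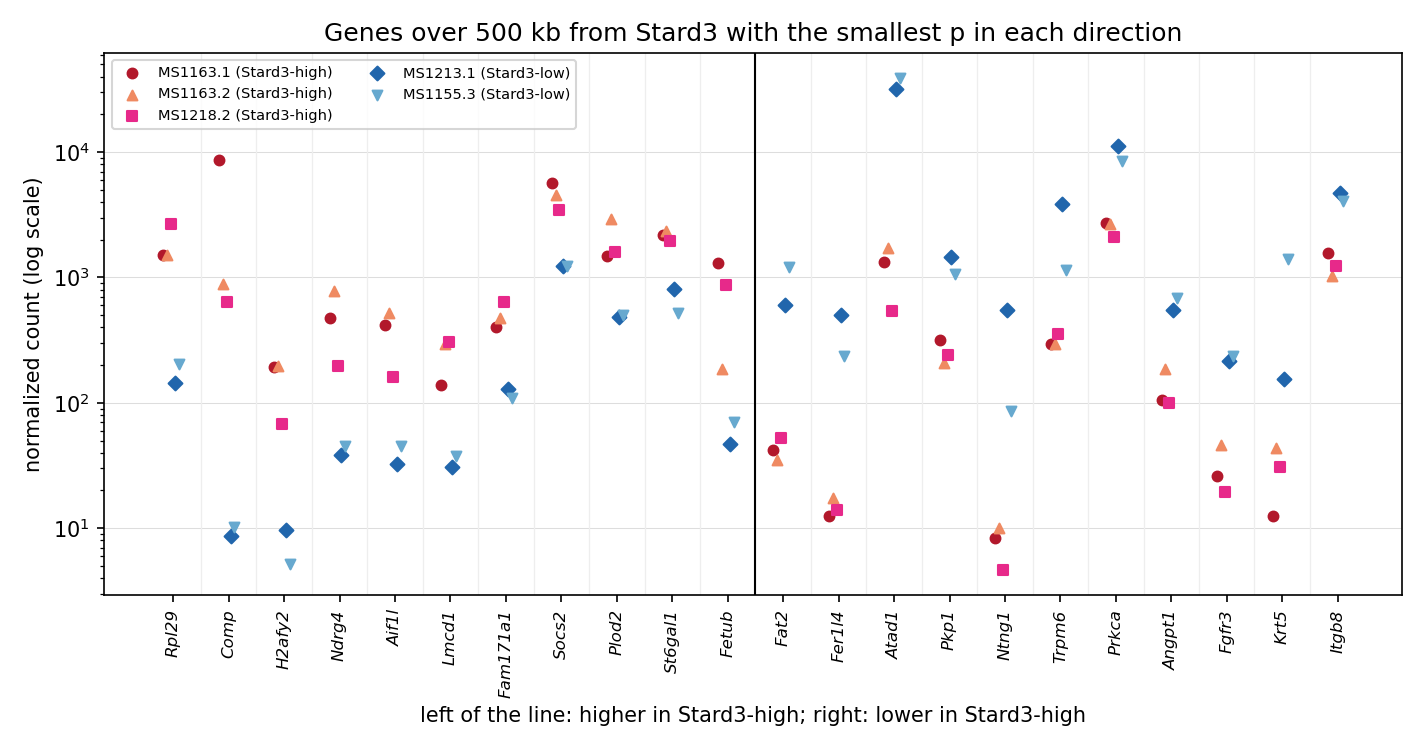
Normalized counts (log axis) in the 5 high-amplified tumours of 11 genes higher (left of the line) and 11 genes lower (right) in the Stard3-high tumours that were among the 12 with the smallest edgeR p among genes over 500 kb from Stard3 whose groups did not overlap, with 1 point per tumour. Comp spans 634 to 8631 within the Stard3-high tumours, whereas Socs2 and Prkca hold close values within each group.

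The lists of sterol and GPI-anchor genes, the processes in which Stard3 and Pgap3 act, held 0 calls in either direction. Of 22 tested genes of sterol synthesis and uptake, 20 had a positive log2 difference, with a median of 0.74, and 6 (against 11.9% of all tested genes) were higher in each Stard3-high tumour. Mvk, mevalonate kinase, had 259, 323 and 311 normalized counts in MS1163.1, MS1163.2 and MS1218.2 against 148 and 176.5 in MS1213.1 and MS1155.3, and Dhcr7, the last enzyme of cholesterol synthesis, 1572, 1470 and 1157 against 468 and 1007. The summed level of this list, 21760, 30950 and 13820 against 13180 and 17530, overlapped between the groups, and it was 22670 to 42980 in the not/low-amplified tumours. The 20 genes of endosomal and cellular sterol transport had a median of 0.09. Of these, Npc2, which binds cholesterol in the lysosome, and Soat1, which esterifies it, were higher in each Stard3-high tumour (log2 differences 0.98 ± 0.45 and 1.02 ± 0.41). The same held for 1 other member, while 1 was lower in each. Across all tested genes 11.9% were higher and 11.6% lower in this way. The 24 GPI-anchor genes, which do not include Pgap3, had a median of 0.12 and summed levels of 14830 to 16040 against 14470 and 14790. Of these, 2 were higher and 3 lower in each Stard3-high tumour, against 11.9% and 11.6% of all tested genes. Pigp, with the smallest p, had a log2 difference of 1.01 ± 0.42.

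Receptor and ERK genes were examined because Erbb2 itself differed. Of 13 tested ErbB receptors and ligands, Erbb2 left out, 0 were called, with a median log2 difference of -0.15; Erbb3, the partner of Erbb2, had 6876, 5151 and 3196 normalized counts in MS1163.1, MS1163.2 and MS1218.2 against 6579 and 7438 in MS1213.1 and MS1155.3. The ERK feedback and target genes had a median of 0.53 over 18 genes, 15 of them with a positive difference, and 0 were called. Dusp6, a phosphatase of ERK, had 17140, 9117 and 6786 against 3113 and 5870, and the transcription factor gene Etv5 had 5962, 4033 and 4589 against 2114 and 2760. Both were thus higher in each Stard3-high tumour, in which Erbb2 was lower, and both exceeded the not/low-amplified tumours in all 5 (at most 1403 and 454).

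All 25 cell cycle genes had a positive log2 difference, with a median of 1.05, and 0 were called; 8 had an unadjusted p under 0.05 in edgeR, all higher, against 2.8% of all tested genes, and 11 were higher in each Stard3-high tumour, against 11.9%. Plk1, a mitotic kinase, had 440, 588 and 330.5 normalized counts in MS1163.1, MS1163.2 and MS1218.2 against 115 and 222 in MS1213.1 and MS1155.3. Mcm3, a subunit of the replicative helicase, had 1004, 1289 and 897 against 422 and 527. The sums of the list, 29600 and 41370 in the tumours of mouse MS1163 but 14360 in MS1218.2, against 12900 and 18560, show that the level of MS1218.2 lay within the Stard3-low range. The not/low-amplified tumours had 30660 to 59760.

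**Figure D4:**
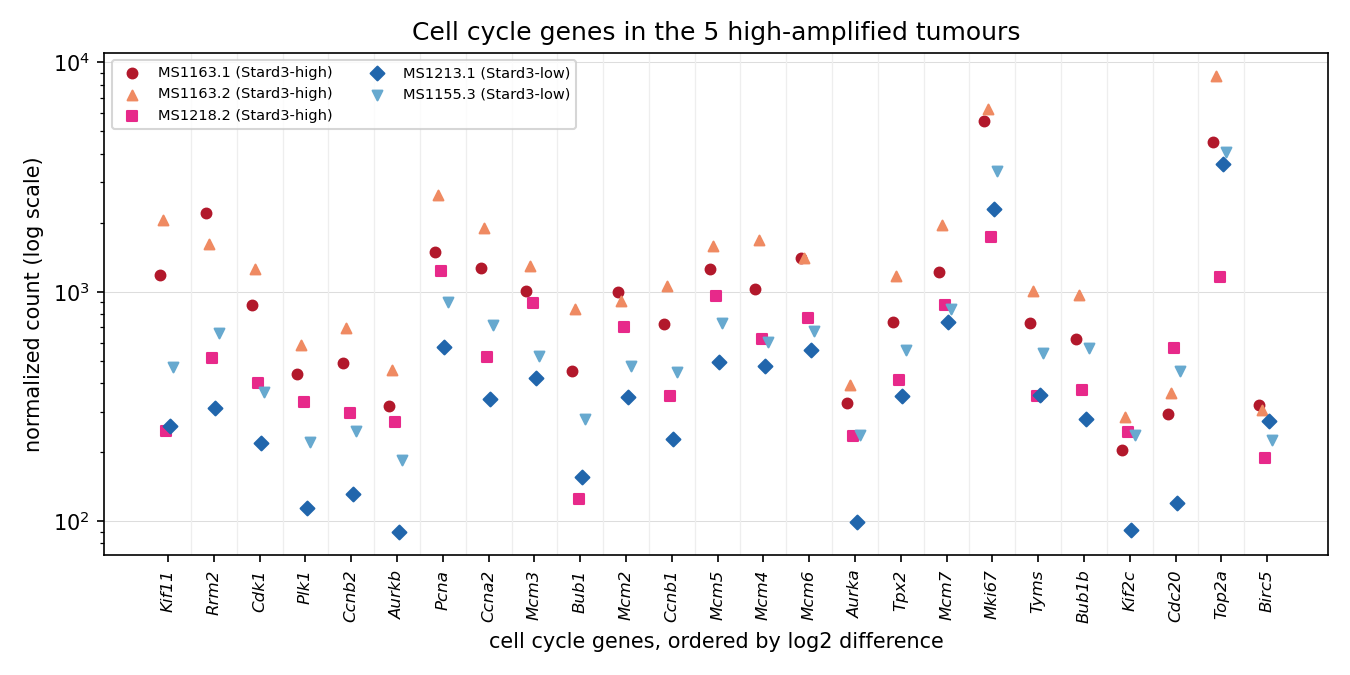
Normalized counts (log axis) of the 25 cell cycle genes in the 5 high-amplified tumours, ordered from the largest log2 difference on the left, with 1 point per tumour. The 2 tumours of mouse MS1163 are the highest for most genes, and MS1218.2 lies among the Stard3-low tumours for several.

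Gene length moved with the groups. The tested genes were placed in 5 classes of near-equal size by exon length. In the class with the shortest exons (375 to 2519 bases) the median log2 difference was 0.46, and in the class with the longest (7641 bases and more) it was -0.18. The median log2 ratio to the not/low-amplified tumours in the shortest class was 0.15 in MS1218.2 and between -0.51 and -0.23 in the other 4, so that MS1218.2 stood apart from them. After the median of its length class was subtracted from each gene, 24 of the 25 cell cycle genes were still above 0, with a median of 0.91, and the sterol synthesis genes had a median of 0.66. Other lists moved more. The ERK list went from 0.53 to 0.24, the GPI-anchor list from 0.12 to -0.05, and the interferon and MHC list from -0.42 to -0.72. The part of length in the calls was not tested.

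The remaining pathway lists held few calls. Hypoxia and glycolysis genes had a median of 0.70 over 22 genes with 0 calls; Gapdh, a glycolytic enzyme with many near-identical pseudogenes and therefore uncertain, had 19150, 10260 and 28810 normalized counts in MS1163.1, MS1163.2 and MS1218.2 against 2309 and 9585 in MS1213.1 and MS1155.3, and the peptide hormone gene Adm 860, 793 and 780 against 136 and 433. Fatty acid synthesis genes had a median of -0.53 over 18 genes with 1 called lower, against 0.4% of all genes, Thrsp (209, 93.2 and 190 against 453 and 2773). Interferon-stimulated and MHC genes had a median of -0.42 over 29 genes, 26 of them with a negative difference, and 0 calls. Their summed level was 31430, 12580 and 85640 against 37110 and 65630, so that MS1218.2 was the highest of the 5. Milk protein and alveolar genes had a median of -0.25 (0.14 without the filter on low counts) and 1 call of 14, Muc15, a membrane mucin (1290, 1645 and 4434 against 13910 and 12420), which lost its call with the tumours of mouse MS1163 summed (DESeq2 adjusted p 0.0969). Hormone-sensing luminal genes had a median of -0.33 over 14 genes with 0 calls; Gata3, the luminal transcription factor, had 1468, 826 and 1414 against 2947 and 2729. The medians of all these lists are beside one of 0.06 over all tested genes.

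There were 31 stretches that held a run of 10 neighbouring genes with a median log2 difference beyond 1 in either direction, 11 of them on chromosome 11. The median over a whole stretch could be smaller. Outside chromosomes 11 and 19 the most extreme runs were in the Hoxa cluster (2.78, with 0.67 over the whole stretch) and the kallikrein cluster (-1.96, with -0.39 over the whole stretch). In the Hoxa cluster of chromosome 6, Hoxa5 had 44.1, 103 and 71.3 normalized counts in MS1163.1, MS1163.2 and MS1218.2 against 8.67 in MS1213.1 and 3.86 in MS1155.3, and was called. In the kallikrein cluster of chromosome 7, Klk14 had 5.25, 3.73 and 8.33 against 71.3 and 55.4 and was called, and Klk11 had 0 in all 3 Stard3-high tumours against 90.5 and 21.9. With the tumours of mouse MS1163 summed, Hoxa5 and Klk14 were not called (DESeq2 adjusted p 0.0634 and 0.0735). The widest stretch, with 49 genes, was on chromosome 13 and held replication-dependent histone genes among others; 41 of the 49 had a positive difference, with a median of 1.08 and 0 calls. Hist1h3d was an example (log2 difference 1.80 ± 0.58).

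Other cell types were unequally present. In bulk tumours, more cells of a type and more RNA per cell cannot be told apart. Luminal markers summed to 46980 to 71380 normalized counts in the 5 tumours, with the defining genes Krt8, Krt18 and Epcam at 4151 or more in each. MS1218.2 stood above the other 4 for fibroblast markers (386500 against 45200 to 117300), macrophage markers (93150 against 11210 to 23340) and endothelial markers (17700 against 3863 to 5537). MS1163.2 stood above them for skeletal muscle markers (27530 against 195 to 782), of which Ttn, the giant sarcomere protein, gave 23640, and for adipocyte markers (6362 against 1728 to 2753). All 10 fibroblast and all 10 endothelial markers had a positive log2 difference, with medians of 1.05 and 1.10, and 0 of either list were called. T cell markers had a negative difference for 6 of 6 tested genes, at summed levels of 54.7 to 263. B and plasma cell markers (4 tested, median -0.44) and neutrophil markers (4 tested, median -0.01) held 0 calls. Erythroid markers had a median of -0.55, with 5 of 6 tested genes negative; the 1 call was in the other direction, Hba-a2 (64.0, 12.4 and 145 against 1.93 and 0), a haemoglobin gene with a near-identical copy and therefore uncertain. The Schwann cell list had a median of 0.48 over 10 genes. Calls depended strongly on MS1218.2: without it DESeq2 called 216 genes higher and 232 lower, the comparison then being 2 tumours of 1 mouse against 2 tumours of 2 mice.

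**Figure D5:**
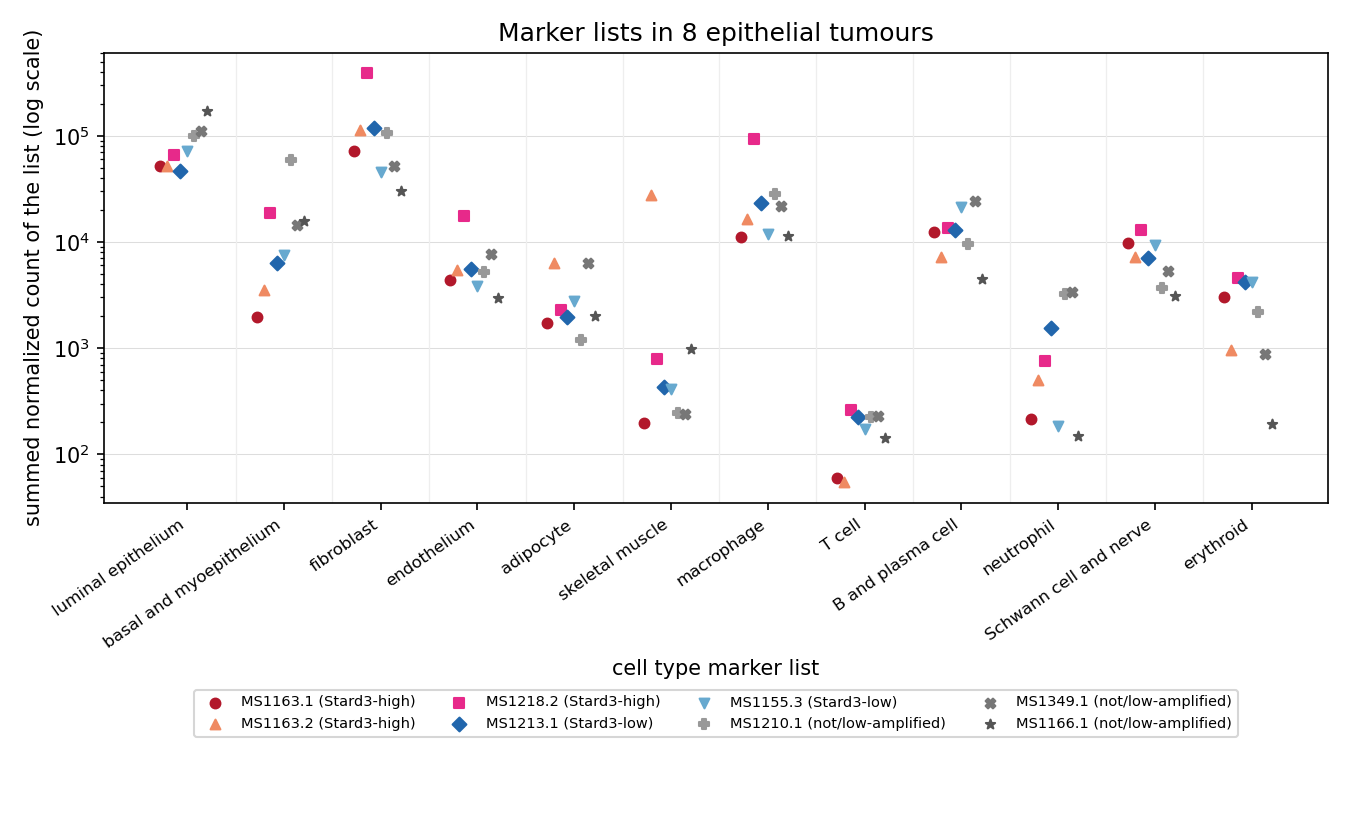
Summed normalized counts (log axis) of 12 cell type marker lists in the 8 epithelial tumours, with 1 point per tumour. MS1218.2 is the highest of the 8 for fibroblast, endothelium and macrophage markers, and MS1163.2 for skeletal muscle markers.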

How the data were processed

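Ribosomal RNA-depleted total RNA of each tumour was made into 1 strand-specific library. Per the study's methods, the authors aligned the reads with STAR to GRCm38, kept reads with 1 position, and counted them per gene with HTSeq-count; whether strand was used in the counting, and the tool versions, are not given in the sources used here. The deposited files hold whole-read counts, used for every test, and a signal, the counts that the authors divided by a size factor per tumour (0.776 to 1.42), printed here as normalized counts. Of 18484 genes, 18420 were placed on GRCm38 by the reference annotation and 64 were not. The 5 tumours compared had 12501225 to 18327792 reads on genes.

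The Stard3-high and Stard3-low tumours were compared with the quasi-likelihood test of edgeR 4.0.16 (R 4.3.3, TMM scaling, Benjamini-Hochberg adjustment) on 13949 genes, each with 10 or more counts in 2 or more of the 5 tumours. A call needed an adjusted p under 0.05 and over 2-fold. The biological coefficient of variation was 0.505. DESeq2 1.42.0, limma 3.58.1 (voom, and trend on log2 of the normalized count plus 1 or 10), other scalings and filters, each tumour left out, the tumours of 1 mouse summed, parity as a covariate and a fit with all 8 epithelial tumours were the alternatives. DESeq2 on the filtered genes, with the mouse summed and without each tumour were chosen after seeing the data. The edgeR step was tested on simulated counts. The DESeq2 step, to which the calls refer, was not tested in this way.

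The members, lists and tests were chosen with earlier results of these data known. Genes were named by rule: those within 500 kb of Stard3 with at least 100 normalized counts in some high-amplified tumour; in each direction the 12 farther genes with the smallest edgeR p whose groups did not overlap and whose higher group averaged at least 100; up to 4 members of each list with the smallest p; and the 3 genes with the largest difference in each chromosome stretch. A few genes that this rule picks are not reported here. Genes outside it are said to be so where they are named, except markers and members given as examples of a list. Each tumour gave 1 library, and p-values measure the spread between tumours, 2 of which came from the same mouse.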

Additional observations from a re-analysis of the deposited data

Results flagged for a closer look

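In 114 series of 5 values (the genes and marker sums described), 33 had 1 tumour so far from the others that its gap exceeded 0.71 of the whole range, the 95% critical value of Dixon's test; all 33 were the highest value. Chance alone passes this value in about 5% of series of normally distributed values. The normalized counts were used here without logarithms, and the genes were not drawn at random. The share expected by chance is therefore not known.

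MS1218.2 was far above the other 4 tumours in 11 of them. These were the fibroblast (386500 normalized counts), endothelial (17700) and macrophage (93150) marker sums, the contractile genes Acta2 (11090) and Actg2 (1878), the Schwann cell genes S100b (1095) and Pmp22 (1517), and Med1 (33510), Cdk12 (18650), Plxdc1 (150) and Papss2 (339). MS1163.2 was the highest in 5, the adipocyte (6362) and skeletal muscle (27530) marker sums, Ttn (23640), Tcap (90.7) and Gsdma3 (122). MS1163.1 was the highest in Comp (8631).

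Among the Stard3-low tumours, MS1213.1 was far above the others in the oxytocin receptor gene Oxtr (1942), Klk11 (90.5), Ntng1 (555), the cilia transcription factor gene Foxj1 (187) and Trpm6 (3881). MS1155.3 was far above the others in Sgms1 (35950), Asah2 (23970) and Minpp1 (17050) of chromosome 19, in the epithelial genes Krt5 (1392), Krt16 (254) and Trp63 (743), in the interferon-stimulated genes Oas2 (2561) and Mx1 (827), and in the lipid and milk genes Thrsp (2773), Acsl1 (2702) and Btn1a1 (3004). For these genes the Stard3-low mean rests largely on 1 tumour.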

How the results depend on the processing

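With edgeR, 0 genes were called higher and 0 lower, and the same counts came from median-of-ratios or upper-quartile scaling, a mean count of at least 50, the summed mouse, parity as a covariate and chromosome 11 left out of the scaling. Without a filter 3 were called higher and 3 lower. Limma-voom and limma-trend with either pseudocount called 2 higher and 0 lower, as did edgeR with all 8 epithelial tumours; the 2 were Stard3, whose value made the groups, and its neighbour Pgap3, so that these calls follow from the choice of tumours and are no test. With each tumour left out in turn edgeR called 0 to 3 higher and 0 to 1 lower, the highest without MS1218.2. DESeq2 called 46 higher and 59 lower, 48 and 65 on the filtered genes, and 34 and 49 with the mouse summed, where Rnf213 and Tcap, besides the genes given above, were no longer called. With each tumour left out in turn it called 19 to 216 higher and 20 to 232 lower: 19 and 35 without MS1213.1, 47 and 51 without MS1163.1, 40 and 49 without MS1163.2, 42 and 20 without MS1155.3, and 216 and 232 without MS1218.2. The cause was not tested. Runs of 20 genes gave 7 stretches in place of 31. Without a filter on low counts the median of the milk protein list turned from -0.25 to 0.14, and the medians of the other 11 pathway lists kept their sign.

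Of 97 named genes with a test, 6 reversed direction under some alternative. Without MS1163.2 the log2 difference of Ttn was -1.17 (DESeq2 -1.22). Without MS1218.2 it was -0.18 for Cdk12 (DESeq2 -0.19), -0.42 for Fbxl20 (DESeq2 -0.43) and -0.0072 for Papss2 (DESeq2 -0.016). Ormdl3 was 0.44 without MS1163.1 (DESeq2 0.43), 0.46 without MS1155.3 (DESeq2 0.46) and 0.061 with parity as a covariate. With 1 tumour left out, the edgeR values of these genes reached 5.38 for Ttn, 1.91 for Cdk12, 1.41 for Papss2 and 0.53 for Fbxl20, and the lowest for Ormdl3 was -0.55. Nr1d1, at -0.04 with edgeR, was 0.038 with limma-voom, 0.12 with the mouse summed (DESeq2 0.096), 0.21 with parity as a covariate, and -0.55 to 0.73 with 1 tumour left out (DESeq2 0.19 without MS1163.2 and 0.71 without MS1155.3). No paired analysis was possible because no mouse gave a tumour to both groups. Genes of few reads, such as Klk11 at 0 in 3 tumours, are also limited by depth.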
